A study of Mus musculus with 31 samples.

Results

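The 81 genes described here encode the nuclear part of the mitochondrial respiratory chain and of ATP synthase in mouse spinal cord ependymal cells. They were taken by symbol from the 16301 genes of the deposited bulk RNA table: Ndufa, Ndufb, Ndufc, Ndufs or Ndufv followed by a digit, Sdha to Sdhd, symbols starting with Uqcr, subunits Cox4 to Cox8, and symbols starting with Atp5. Complex I holds 37 of them, complex II 4, complex III 8, complex IV 14 and complex V 18. All but 1 entered the tests: Atp5l-ps1, a pseudogene of ATP synthase subunit g, stayed between 3.3 and 9.3 normalised counts and was not tested, which left 80. Matching by symbol has known side effects. Ndufa4 is counted here under complex I by its name, although its protein is now known as a subunit of complex IV, and Atp5s, Atp5sl and Cox7a2l encode assembly or supercomplex factors rather than subunits. Ndufab1, Cyc1, Cycs and Atpif1, which also belong to this machinery, do not match and were read from separate lists.

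Complexes I and II pass electrons from NADH and succinate to ubiquinone, complex III passes them on to cytochrome c, and complex IV gives them to oxygen. Complexes I, III and IV pump protons across the inner mitochondrial membrane, and complex V, the ATP synthase, uses the returning protons to make ATP. Complex II pumps none and is also an enzyme of the citric acid cycle. Its subunits are all nuclear-encoded, whereas the other complexes combine nuclear subunits with a small set made from the mitochondrial genome. Ependymal cells line the central canal and beat motile cilia, which run on ATP.

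RNA was measured in 12 bulk libraries of small pools of cells labelled as ependymal, made by a Smart-seq2 type protocol from spinal cords that were digested and sorted by flow cytometry. The groups, each with 2 libraries, were Foxj1-Olig2-tdT and Foxj1-tdT, each uninjured, at 1 dpi and at 5 dpi (read as days after injury), all on a C57BL/6 background. The names join Foxj1, the ependymal transcription factor whose promoter is used to mark these cells, the red reporter tdT and, in the first line only, Olig2, which helps specify oligodendrocyte progenitors; the labels do not describe the alleles further. Age, sex and the number of animals per library are not given in the labels, nor whether replicates came from different animals, and any p-value is therefore set by library-to-library spread that could be technical. Single-cell RNA from 6 libraries was read as a description. Their labels name the same lines, each uninjured and at 2 times given in weeks after injury, later than the bulk times. Single-cell open chromatin from 1 sample of uninjured spinal cord was also read as a description, and 12 bulk chromatin libraries were not analysed here.

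Olig2 separated the lines. It measured 2450.1 and 1690.3 normalised counts in uninjured Foxj1-Olig2-tdT libraries, 3840.5 and 3961 at 1 dpi, then 2794 and 3792 at 5 dpi. Foxj1-tdT libraries gave 4.5 and 4.4 uninjured, 11.7 and 2.2 at 1 dpi, then 17.4 and 195 at 5 dpi; the last of these, Foxj1-tdT 5 dpi replicate 2, stood above the rest of its line, the others being at or under 17.4. Summed values ran from 12601289.7 to 13878101.7 per library. The 2 uninjured Foxj1-tdT libraries were closer to each other (Pearson r = 0.9895 over all genes) than any other pair (0.8643 to 0.9276), so comparisons were also run with their mean as 1 library, and those counts stand beside the main ones where they differ by over 1.5 times. Markers of other cell types also moved. The 4 pericyte and smooth muscle genes held 0.291% and 0.204% of summed values in Foxj1-Olig2-tdT libraries at 5 dpi. In Foxj1-tdT libraries at 5 dpi they held 0.216% and 0.0274%, against 0.00481% to 0.0201% in the libraries of the other times. The 9 astrocyte genes held 0.139% to 0.309%, with 0.185% and 0.309% in the 2 uninjured Foxj1-Olig2-tdT libraries. Only 3 of 9 microglia markers and 3 of 7 infiltrating myeloid markers were in the bulk table, so the level of those cells could not be judged. Fibroblast genes held 0.0351% to 0.0710% at 5 dpi, and 0.106% in Foxj1-tdT 1 dpi replicate 1, against 0.00124% to 0.00726% in the rest. The 8 oligodendrocyte progenitor genes held 0.0555% and 0.0384% in Foxj1-Olig2-tdT libraries at 5 dpi, against 0.00508% and 0.00837% in uninjured Foxj1-Olig2-tdT libraries, and 0.00960% and 0.0341% in Foxj1-tdT libraries at 5 dpi, against 0.00105% and 0.000882% uninjured. The 7 neuronal genes held 0.0723% and 0.0823% in Foxj1-Olig2-tdT libraries at 5 dpi, against 0.0187% and 0.0192% uninjured, and 0.0246% to 0.0873% in injured Foxj1-tdT libraries, against 0.00877% and 0.00883% uninjured. Genes of myelinating oligodendrocytes held 0.176% and 0.0166% in the 2 Foxj1-tdT libraries at 1 dpi. The part of such cells in the results below was not tested, and in bulk RNA fewer cells of a type and less RNA per cell cannot be told apart.

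The promoters of 5 members that carry much of what follows are printed here, each from 250 bases before the gene start to 50 after it (RefSeq, GRCm38.p6). They are Sdha and Sdhd, the members of complex II with calls, Cox6a1 and Ndufa4, among the members with the largest rises, and Ndufb10, with the largest fall of a subunit above 50 normalised counts in Foxj1-Olig2-tdT cells. In the order printed they lie at chr9:50603800-50604099, chr13:74350191-74350490, chr5:115348909-115349208, chr6:11907401-11907700 and chr17:24724374-24724673, all on the minus strand and read 5′ to 3′ with the gene. Capitals mark exact matches, on either strand, to GCGCANGCG (the NRF1 motif) or CCGGAAG (a core ETS motif, as bound by GABP).
Sdhd: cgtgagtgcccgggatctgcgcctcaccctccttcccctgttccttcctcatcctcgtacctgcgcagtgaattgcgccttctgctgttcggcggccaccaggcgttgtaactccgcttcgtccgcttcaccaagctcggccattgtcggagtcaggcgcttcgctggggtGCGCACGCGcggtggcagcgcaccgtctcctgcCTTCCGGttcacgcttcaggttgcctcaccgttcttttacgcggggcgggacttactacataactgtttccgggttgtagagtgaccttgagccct
Sdha: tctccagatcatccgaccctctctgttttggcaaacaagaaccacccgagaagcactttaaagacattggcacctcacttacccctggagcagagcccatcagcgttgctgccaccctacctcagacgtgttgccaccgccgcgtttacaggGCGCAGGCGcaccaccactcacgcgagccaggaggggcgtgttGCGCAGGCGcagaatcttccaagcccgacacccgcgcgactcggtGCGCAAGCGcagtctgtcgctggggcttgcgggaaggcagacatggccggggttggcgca
Cox6a1: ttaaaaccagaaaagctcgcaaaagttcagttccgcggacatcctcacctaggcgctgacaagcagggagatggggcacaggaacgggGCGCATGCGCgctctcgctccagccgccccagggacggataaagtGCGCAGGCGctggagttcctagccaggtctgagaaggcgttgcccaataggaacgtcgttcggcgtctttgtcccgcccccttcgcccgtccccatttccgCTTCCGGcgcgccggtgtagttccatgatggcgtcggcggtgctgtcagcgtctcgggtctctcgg
Ndufa4: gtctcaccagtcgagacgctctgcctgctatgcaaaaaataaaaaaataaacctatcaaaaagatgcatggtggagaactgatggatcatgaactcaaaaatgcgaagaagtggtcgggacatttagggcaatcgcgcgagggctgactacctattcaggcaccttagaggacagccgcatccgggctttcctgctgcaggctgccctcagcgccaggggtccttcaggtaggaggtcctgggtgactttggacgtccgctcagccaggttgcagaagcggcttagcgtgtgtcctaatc
Ndufb10: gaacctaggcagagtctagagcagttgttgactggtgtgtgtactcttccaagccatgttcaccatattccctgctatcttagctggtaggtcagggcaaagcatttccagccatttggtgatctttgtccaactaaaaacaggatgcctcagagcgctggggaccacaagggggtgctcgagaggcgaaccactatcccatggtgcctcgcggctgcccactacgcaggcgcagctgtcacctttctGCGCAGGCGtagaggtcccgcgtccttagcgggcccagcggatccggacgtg
The letters of the 2 motifs do not overlap in these windows. The NRF1 letters began 79 bases before the start of Sdhd, 98, 55 and 10 bases before that of Sdha, and 162, 161 and 117 bases before that of Cox6a1, the first 2 being a run that reads on both strands, and 2 bases before that of Ndufb10. The ETS letters, which read CTTCCGG on the strand shown, began 46 bases before the start of Sdhd and 16 before that of Cox6a1. Neither motif, nor GGGCGGGG (SP1) or AAGATGGCG (YY1), was found in the window of Ndufa4.

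Respiratory chain transcripts took up more of the RNA after injury in both lines, and most at 5 dpi in Foxj1-Olig2-tdT cells. In Foxj1-Olig2-tdT libraries the 81 genes together made up 1.55% and 1.56% of summed values uninjured, 1.59% and 1.72% at 1 dpi, then 2.07% and 2.09% at 5 dpi. In Foxj1-tdT libraries they made up 1.40% and 1.45% uninjured, 1.72% and 1.68% at 1 dpi, then 1.69% and 1.74% at 5 dpi. Both Foxj1-Olig2-tdT libraries at 5 dpi were above all other libraries, and both uninjured Foxj1-tdT libraries were the lowest of the 12. The summed share of complex II was lower at 5 dpi than uninjured in both lines. Its 4 genes held 0.0888% and 0.0891% in Foxj1-Olig2-tdT libraries at 5 dpi, against 0.102% and 0.0967% uninjured. In Foxj1-tdT libraries they held 0.0761% and 0.0815% at 5 dpi, against 0.0968% and 0.0985% uninjured. Gene by gene, 3 of the 4 had a positive fold change at 5 dpi in Foxj1-Olig2-tdT cells, all but Sdha, and 1 of the 4 in Foxj1-tdT cells. An exact two-sided permutation test of 2 against 2 libraries cannot give a p under 0.333, and no test was run on these shares.

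The 13 subunits made from the mitochondrial genome ran the other way. In Foxj1-Olig2-tdT libraries they held 9.41% and 8.22% of summed values uninjured, 8.29% and 7.56% at 1 dpi, then 5.40% and 4.85% at 5 dpi, the lowest 2 of the 12 libraries. The Foxj1-tdT libraries held 10.4% and 9.61% uninjured, 7.19% and 6.93% at 1 dpi, then 6.54% and 8.49% at 5 dpi. The ratio of nuclear to mitochondrial transcripts of the chain was therefore highest in Foxj1-Olig2-tdT libraries at 5 dpi, at 0.383 and 0.430, against 0.164 and 0.190 in uninjured Foxj1-Olig2-tdT libraries. In Foxj1-tdT libraries at 5 dpi it was 0.259 and 0.205, against 0.135 and 0.151 uninjured, and the groups of the 2 times did not overlap in either line. Since mitochondrial transcripts are part of the summed values, the nuclear share was also taken without them: it was 2.19% in both Foxj1-Olig2-tdT libraries at 5 dpi, against 1.71% and 1.70% in uninjured Foxj1-Olig2-tdT libraries, and 1.81% and 1.90% in Foxj1-tdT libraries at 5 dpi, against 1.56% and 1.61% in uninjured Foxj1-tdT libraries. Both Foxj1-Olig2-tdT libraries at 5 dpi were again the highest of the 12.

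**Figure D1:**
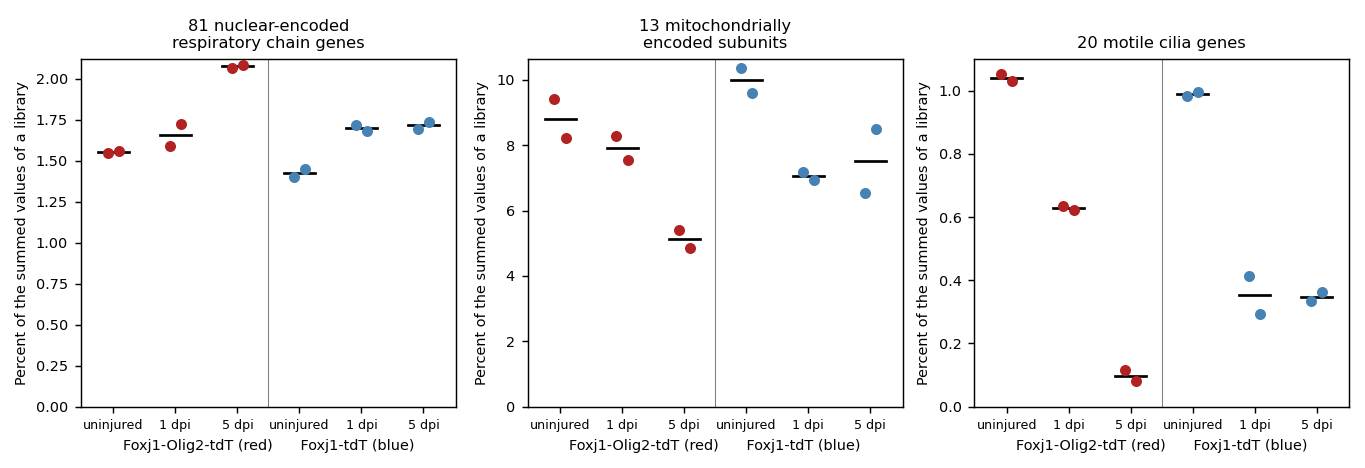
Share of each library's summed normalised counts (percent, y axis from 0) held by the 81 nuclear-encoded members, the 13 mitochondrially encoded subunits and 20 motile cilia genes, for Foxj1-Olig2-tdT (red) and Foxj1-tdT (blue) libraries by time; points are libraries and bars the group means. The nuclear share is highest in Foxj1-Olig2-tdT libraries at 5 dpi (2.07% and 2.09%), where the mitochondrial share (5.40% and 4.85%) and the cilia share (0.115% and 0.0815%) are lowest.

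Cilia genes went down over the same libraries: in Foxj1-Olig2-tdT libraries 20 motile cilia genes held 1.05% and 1.03% of summed values uninjured, 0.636% and 0.623% at 1 dpi, then 0.115% and 0.0815% at 5 dpi. The Foxj1-tdT libraries held 0.983% and 0.996% uninjured, 0.413% and 0.294% at 1 dpi, then 0.335% and 0.362% at 5 dpi. The part of this change in the respiratory chain shares was not tested.

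The values of each tested member across the 12 libraries are drawn in the heat map as differences from that gene's own mean, so rows show change and not level.

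**Figure D2:**
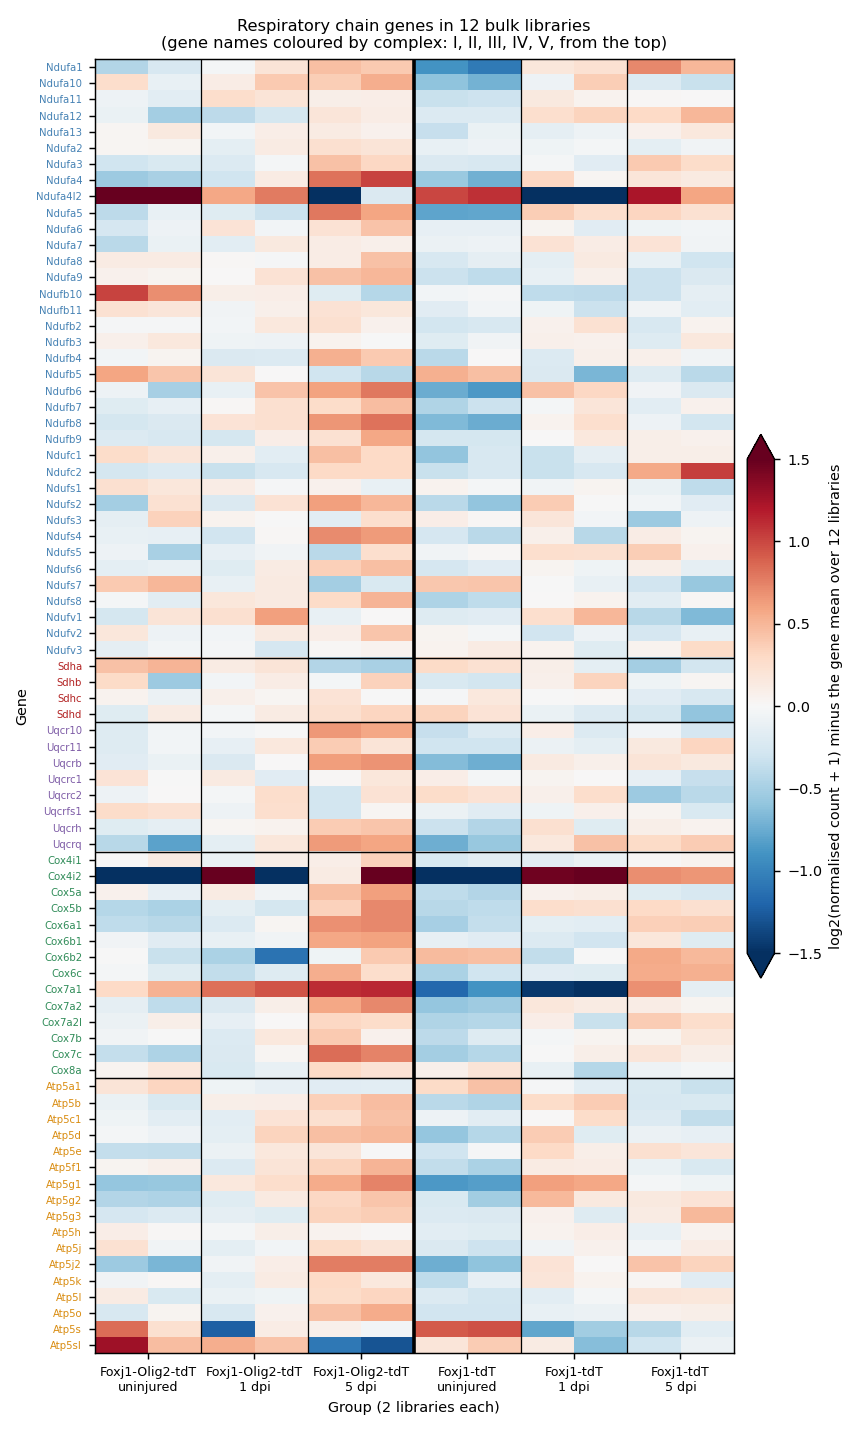
Heat map of 80 respiratory chain genes (rows, ordered by complex) in 12 bulk libraries (columns, 2 per group), as log2(normalised count + 1) minus the gene's mean over the libraries, with colours saturating at the ends of the scale. The Foxj1-Olig2-tdT columns at 5 dpi are above the gene mean for most genes of complexes III and IV, and below it for Ndufb10, Ndufb5, Ndufs7, Sdha and Atp5sl.

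Members were tested in a fit over all 15811 genes with limma on log2(value + 1), called at an adjusted p under 0.05 (Benjamini-Hochberg over all genes of a comparison); fold changes are on that scale and are followed by their SE. Each call was refitted in 18 alternatives, of which 12 leave out 1 library each. A call that stayed under 0.05 in every one of them is said to have held throughout. Of 108 rises called over all comparisons, 38 held throughout, as did 6 of 24 falls. Over the 9 comparisons of groups, 31 members were called in none, 36 only as higher, 9 only as lower and 4 in both directions. None of these totals was computed over all genes, so they are not read as particular to the members.

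At 5 dpi, 15 of 80 members measured higher and 0 lower in Foxj1-Olig2-tdT than in Foxj1-tdT cells, when 3.36% of all genes were called higher and 5.88% lower. Ndufb8, a membrane-arm subunit of complex I, and Atp5b, the catalytic beta subunit of ATP synthase, held throughout, at 0.91 ± 0.15 (adjusted p = 0.00454) and 0.64 ± 0.10 (adjusted p = 0.00373) by limma. The others were Ndufa4, Ndufa9 and Ndufb6 of complex I, Sdhd of complex II, Uqcr10 and Uqcrb of complex III, Cox5a, Cox6b1, Cox7a2 and Cox7c of complex IV, and Atp5c1, Atp5f1 and Atp5g1 of complex V, between 0.48 and 0.83. The median over the 80 was 0.31, against 0.01 over all genes, and 64 of the 80 were above 0 (80%, against 50.4% of all genes). By complex, the medians were 0.32, 0.24, 0.33, 0.33 and 0.30 for I to V. The count was lower without any 1 library at 5 dpi or any 1 uninjured Foxj1-tdT library. It was 8 counting the uninjured Foxj1-tdT pair once (1.77% of all genes). Fewer libraries were fitted in these settings, and the cause of the lower counts was not tested. Motile cilia genes went the other way in this comparison, with 18 of 20 lower (median -1.80). So did the 11 ependymal markers, of which 8 were lower (median -1.16). They held 0.655% and 0.642% of summed values in Foxj1-Olig2-tdT libraries at 5 dpi and 1.33% and 1.45% in Foxj1-tdT libraries at 5 dpi. Libraries of the other times held 0.925% to 1.19%. The higher share in Foxj1-tdT libraries at 5 dpi was not a rise of most markers. Over uninjured, 7 of the 11 were called lower there and 1 higher (median -1.24), against 9.21% and 13.8% of all genes. The part of these differences in cilia genes and ependymal markers in the members' counts was not tested.

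Fewer members were called between the lines at the earlier times. In uninjured cells Foxj1-Olig2-tdT had 4 members higher and 0 lower than Foxj1-tdT (4.72% and 3.07% of all genes), with a median of 0.19, against 0.00 over all genes. They were Ndufb10, Ndufc1, Ndufa1 and Uqcrb; none held throughout, and the count was 0 (1.06% of all genes) counting the uninjured Foxj1-tdT pair once and 0 without either library of it, 1 with uninjured Foxj1-Olig2-tdT replicate 1 left out, and 2 with replicate 2 of that group left out or any single library of Foxj1-Olig2-tdT at 5 dpi or Foxj1-tdT at 1 dpi. At 1 dpi 1 member was higher and 0 lower (1.29% and 0.55% of all genes), with a median of -0.01, against -0.02, and 0 were higher counting the uninjured Foxj1-tdT pair once (0.37% of all genes). The call was Cox7a1, whose call was lost in 10 of the 18 alternatives (highest adjusted p = 0.124, limma), among them without any 1 of the libraries at 1 dpi, Foxj1-Olig2-tdT at 5 dpi or uninjured Foxj1-tdT. At an unadjusted p under 0.05, 15 of 80 members passed in uninjured cells (18.8%, against 22.9% of all genes), 9 at 1 dpi (11.2%, against 16.3%) and 36 at 5 dpi (45%, against 24.2%).

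After injury, members were called in both directions. In Foxj1-Olig2-tdT cells at 5 dpi over uninjured, 29 of 80 members rose and 7 fell (17.2% and 14% of all genes), with a median of 0.39, against 0.12 over all genes. Complex IV moved in 1 direction: 7 of its 14 members rose, 0 fell, and all 14 had a positive fold change (median 0.63). Complex I had 12 rises and 4 falls among 37 (median 0.35), complex II 0 and 1 of 4 (0.20), complex III 4 and 0 of 8 (0.48) and complex V 6 and 2 of 17 tested (0.45). The 15 rises that held throughout were Ndufa1, Ndufa4, Ndufa5 and Ndufb8 of complex I, Uqcr10, Uqcrb and Uqcrq of complex III, Cox5b, Cox6a1, Cox6b1, Cox7a2 and Cox7c of complex IV, and Atp5b, Atp5g1 and Atp5j2 of complex V. The 4 falls that held throughout were Ndufb5, Ndufb10, Sdha and Atp5sl. The count of rises was 17 without Foxj1-Olig2-tdT 5 dpi replicate 2, and that of falls 4 without Foxj1-Olig2-tdT 5 dpi replicate 1. At 1 dpi over uninjured 2 members rose and 1 fell in Foxj1-Olig2-tdT cells (5.93% and 2.16% of all genes; median 0.06, against 0.00). Atp5g1 held throughout, Atp5j2 did not (lost in 9 alternatives, highest adjusted p = 0.136), and the fall was Ndufb10; the count of rises was 1 counting the uninjured Foxj1-tdT pair once (4.3% of all genes) and without any single Foxj1-Olig2-tdT or uninjured Foxj1-tdT library, and that of falls 0 without Foxj1-Olig2-tdT 1 dpi replicate 1 or Foxj1-Olig2-tdT uninjured replicate 1.

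In Foxj1-tdT cells 17 members rose and 4 fell at 1 dpi over uninjured (15.4% and 12% of all genes; median 0.24, against 0.00), and 19 rose and 6 fell at 5 dpi (13.8% and 9.21%; median 0.25, against 0.04). Counting the uninjured Foxj1-tdT pair once, these were 10 and 1 at 1 dpi (7.59% and 3.56% of all genes) and 9 and 1 at 5 dpi (5.83% and 2.44%). Without uninjured Foxj1-tdT replicates 1 and 2 the rises were 8 and 9 at 1 dpi and 9 and 9 at 5 dpi, and the falls 1 in each. Falls were also 1 at 1 dpi without Foxj1-tdT 1 dpi replicate 2 and 3 at 5 dpi without Foxj1-tdT 5 dpi replicate 2. Held throughout at 1 dpi were Ndufa1, Ndufa5, Ndufb6, Ndufb8, Uqcrb, Atp5b and Atp5g1 as rises and Ndufb5 as a fall. At 5 dpi they were Ndufa1, Ndufa5, Ndufc2, Uqcrb, Cox6a1, Cox6c, Atp5g1 and Atp5j2 as rises and Atp5a1 as a fall. By complex, I had 6 rises and 2 falls at 1 dpi and 8 and 2 at 5 dpi, II had 0 and 0, then 0 and 2, III had 2 and 0, then 3 and 1, IV had 4 and 0, then 6 and 0, and V had 5 and 2, then 2 and 1. Counting the uninjured Foxj1-tdT pair once, rises and falls at 1 dpi were 5 and 1 in complex I, 0 and 0 in II, 2 and 0 in III, 0 and 0 in IV, and 3 and 0 in V. At 5 dpi they were then 3 and 0 in complex I, 0 and 0 in II, 2 and 0 in III, 2 and 0 in IV, and 2 and 1 in V. The median of complex IV at 5 dpi was 0.62, and that of complex II was -0.47.

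Both times were compared with the same uninjured libraries, so their calls are not independent. Of the rises in Foxj1-tdT cells, 12 were shared by the 17 at 1 dpi (70.6%) and the 19 at 5 dpi (63.2%). At 5 dpi, with separate uninjured libraries for each line, 16 rises were shared, which is 55.2% of the 29 in Foxj1-Olig2-tdT cells and 84.2% of the 19 in Foxj1-tdT cells. The shared falls at 5 dpi were Atp5a1, Ndufb5, Ndufs7 and Sdha, 57.1% of the 7 in Foxj1-Olig2-tdT cells and 66.7% of the 6 in Foxj1-tdT cells. The same shares were not computed over all genes, so whether this sharing is particular to the members cannot be said.

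**Figure D3:**
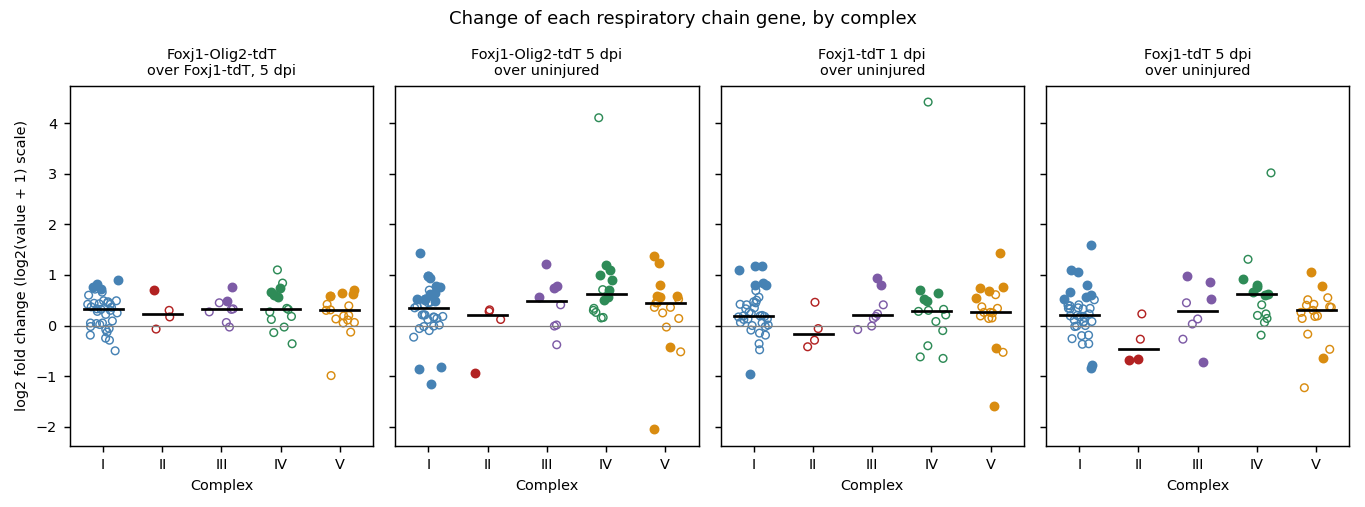
Log2 fold changes (log2(value + 1) scale, y axis) of the members by complex (x axis) in 4 comparisons; each circle is a gene, filled where called, and bars are medians of the complex. Ndufa4l2 (at most 31.5 normalised counts) is left out of the points. All filled circles of complex IV lie above 0 in each panel, and those of complex II lie below 0 except Sdhd in the comparison of the 2 lines.

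The counts from 1 to 5 dpi were unequal in the 2 lines. From 1 to 5 dpi, 17 members rose and 2 fell in Foxj1-Olig2-tdT cells (5.95% and 7.93% of all genes; median 0.32, against 0.06), and 3 rose and 3 fell in Foxj1-tdT cells (2.74% and 3.11%; median -0.01, against 0.05). Ndufa4, Uqcrb, Cox6a1 and Cox7c held throughout in Foxj1-Olig2-tdT cells and Ndufc2, a membrane-arm subunit of complex I, in Foxj1-tdT cells. The Foxj1-Olig2-tdT count was 11 counting the uninjured Foxj1-tdT pair once (3.82% of all genes) and also without either of them, 7 and 12 without Foxj1-Olig2-tdT 1 dpi replicates 1 and 2, and 7 and 6 without Foxj1-Olig2-tdT 5 dpi replicates 1 and 2; the 2 falls became 0 without Foxj1-Olig2-tdT 5 dpi replicate 2 and 1 without either Foxj1-Olig2-tdT 1 dpi library. In Foxj1-tdT cells 2 rose and 1 fell counting the uninjured pair once (1.62% of all genes lower), and leaving out 1 library gave 1 to 4 rises and 0 to 3 falls, the lowest without Foxj1-tdT 1 dpi replicate 2 or Foxj1-tdT 5 dpi replicate 2. The interaction test of the difference in response between the lines called few members: 0 at 1 dpi (0.923% of all genes higher and 1.85% lower; median -0.18, against 0.02), with 9 of 80 at an unadjusted p under 0.05 (11.2%, against 18.4% of all genes), and Sdhd as higher and Ndufb10 as lower at 5 dpi (2.64% and 4.64%; median 0.16, against -0.02). Neither of those calls stood counting the uninjured Foxj1-tdT pair once (0.37% of all genes higher and 1.23% lower), or without either library of it. So the difference between the lines in the 5 dpi response over uninjured was tested gene by gene and called for few members. The difference between the lines in the change from 1 to 5 dpi was not tested.

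**Figure D4:**
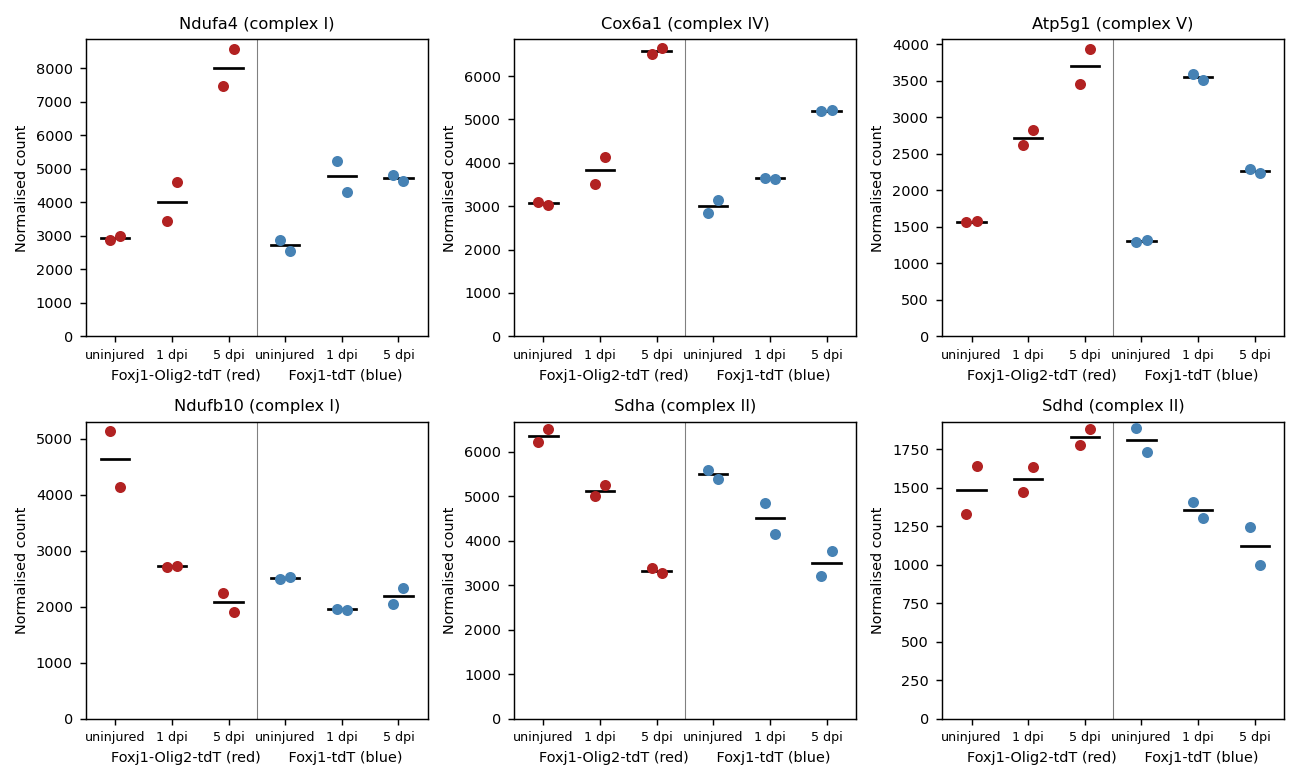
Normalised counts (y axes from 0) of 6 members in each library, Foxj1-Olig2-tdT in red and Foxj1-tdT in blue, by time; bars are means of 2 libraries. Ndufa4, Cox6a1 and Atp5g1 are above their uninjured libraries at 5 dpi in both lines, Ndufb10 and Sdha are below them in both, and Sdhd is above them in Foxj1-Olig2-tdT and below them in Foxj1-tdT libraries.

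Complex I, with 37 members, held rises and falls in each line at 5 dpi. Ndufa4 had the largest rise in Foxj1-Olig2-tdT cells. In Foxj1-Olig2-tdT libraries Ndufa4 measured 2882 and 3003 normalised counts uninjured, 3435 and 4597 at 1 dpi, then 7453 and 8555 at 5 dpi. For Ndufa4, the Foxj1-tdT libraries gave 2877 and 2556 uninjured, 5229 and 4312 at 1 dpi, then 4802 and 4620.1 at 5 dpi. Its values at 5 dpi in Foxj1-Olig2-tdT cells exceeded those of every other group, and both injured Foxj1-tdT groups exceeded the uninjured one. The changes were 1.44 ± 0.17 (adjusted p = 0.000157) at 5 dpi in Foxj1-Olig2-tdT cells, 0.80 ± 0.17 (adjusted p = 0.00817) at 5 dpi and 0.81 ± 0.17 (adjusted p = 0.00652) at 1 dpi in Foxj1-tdT cells, and 0.76 ± 0.17 (adjusted p = 0.0207) between the lines at 5 dpi. The first held throughout; those of Foxj1-tdT cells were lost without uninjured Foxj1-tdT replicate 2 (adjusted p = 0.0813 and 0.0669), and that between the lines without any of the 4 libraries at 5 dpi (0.0532 to 0.158).

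Ndufa1, an accessory subunit needed to assemble the membrane arm, had the largest rise of complex I in Foxj1-tdT cells. In Foxj1-Olig2-tdT libraries Ndufa1 measured 1214 and 1393 normalised counts uninjured, 1612 and 1878 at 1 dpi, then 2242 and 2165 at 5 dpi. For Ndufa1, the Foxj1-tdT libraries gave 882 and 789 uninjured, 1853 and 1925 at 1 dpi, then 2711 and 2319 at 5 dpi. Every injured library was above every uninjured library of its line. The change was 1.59 ± 0.17 (adjusted p = 0.000271) in Foxj1-tdT cells at 5 dpi and 1.18 ± 0.17 (adjusted p = 0.000841) at 1 dpi, against 0.76 ± 0.17 (adjusted p = 0.00697) in Foxj1-Olig2-tdT cells at 5 dpi, and these 3 held throughout. The difference between the 5 dpi responses was -0.83 ± 0.24 (adjusted p = 0.0655), and uninjured Foxj1-Olig2-tdT libraries already lay above uninjured Foxj1-tdT libraries (0.64 ± 0.17 (adjusted p = 0.0468), lost in 10 alternatives, highest 0.341).

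Ndufa5, of the matrix arm, and Ndufb8, of the membrane arm, followed. In Foxj1-Olig2-tdT libraries Ndufa5 measured 941 and 1146 normalised counts uninjured, 1097 and 992 at 1 dpi, then 2154 and 1870.3 at 5 dpi. For Ndufa5, the Foxj1-tdT libraries gave 717 and 724 uninjured, 1606 and 1476 at 1 dpi, then 1549.7 and 1458 at 5 dpi. Ndufa5 was higher than uninjured at both times in Foxj1-tdT cells (1.09 ± 0.18 (adjusted p = 0.00179) and 1.06 ± 0.18 (adjusted p = 0.00271)) and at 5 dpi in Foxj1-Olig2-tdT cells (0.95 ± 0.18 (adjusted p = 0.00286)), with 0.01 ± 0.18 (adjusted p = 1) at 1 dpi; the difference between the 1 dpi responses was -1.09 ± 0.25 (adjusted p = 0.0532). In Foxj1-Olig2-tdT libraries Ndufb8 measured 1913 and 1974 normalised counts uninjured, 2646 and 2702 at 1 dpi, then 3609.8 and 4025 at 5 dpi. For Ndufb8, the Foxj1-tdT libraries gave 1451 and 1366 uninjured, 2379 and 2721 at 1 dpi, then 2168 and 1886 at 5 dpi. The Foxj1-Olig2-tdT libraries at 5 dpi were again the highest, 0.97 ± 0.15 (adjusted p = 0.000822) over uninjured. Ndufb6, another membrane-arm subunit, rose in Foxj1-tdT cells at 1 dpi (1.18 ± 0.21 (adjusted p = 0.00325), held throughout) and in Foxj1-Olig2-tdT cells at 5 dpi (0.98 ± 0.21 (adjusted p = 0.00649), 0.0539 without Foxj1-Olig2-tdT 5 dpi replicate 2).

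Ndufc2 stood out in Foxj1-tdT cells at 5 dpi. In Foxj1-Olig2-tdT libraries Ndufc2 measured 2459.8 and 2549 normalised counts uninjured, 2329.6 and 2493 at 1 dpi, then 3632 and 3613 at 5 dpi. For Ndufc2, the Foxj1-tdT libraries gave 2334 and 2502 uninjured, 2339 and 2488 at 1 dpi, then 4363 and 6039.8 at 5 dpi. Both Foxj1-tdT libraries at 5 dpi were above all others, although they differed from each other, and the gene rose by 1.09 ± 0.16 (adjusted p = 0.00151) over uninjured and 1.09 ± 0.16 (adjusted p = 0.00801) over 1 dpi. In Foxj1-Olig2-tdT cells it was 0.53 ± 0.16 (adjusted p = 0.0321) at 5 dpi, a call lost in 8 alternatives (highest 0.115).

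Falls in complex I included Ndufb10, Ndufb5 and Ndufs7. In Foxj1-Olig2-tdT libraries Ndufb10 measured 5141 and 4142 normalised counts uninjured, 2714 and 2726 at 1 dpi, then 2251 and 1896 at 5 dpi. For Ndufb10, the Foxj1-tdT libraries gave 2489.9 and 2527 uninjured, 1965 and 1941 at 1 dpi, then 2043 and 2334 at 5 dpi. The uninjured Foxj1-Olig2-tdT libraries were the highest of all and did not overlap any other group. Ndufb10, an accessory subunit of the distal membrane arm, fell by 1.16 in Foxj1-Olig2-tdT cells at 5 dpi (SE 0.16, adjusted p = 0.000419, held throughout) and by 0.76 at 1 dpi (0.0182; 0.0676, 0.0698 and 0.0807 without Foxj1-Olig2-tdT 1 dpi replicate 1, 1 dpi replicate 2 and uninjured replicate 1). In Foxj1-tdT cells it was -0.20 ± 0.16 (adjusted p = 0.409) at 5 dpi. The difference between these 5 dpi responses was -0.96 ± 0.22 (adjusted p = 0.0316), and the 2 uninjured groups differed by 0.88 ± 0.16 (adjusted p = 0.00989), whereas at 5 dpi the value between the lines was -0.08 ± 0.16 (adjusted p = 0.819). The first of these did not survive leaving out Foxj1-Olig2-tdT 5 dpi replicate 2 (0.112), Foxj1-Olig2-tdT uninjured replicate 1 (0.0657), Foxj1-tdT 5 dpi replicate 2 (0.0882) and either uninjured Foxj1-tdT library (0.142 and 0.136), and the second without either uninjured Foxj1-tdT library (0.116 and 0.105).

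In Foxj1-Olig2-tdT libraries Ndufb5 measured 5129 and 4529.8 normalised counts uninjured, 3894 and 3406 at 1 dpi, then 2754 and 2551 at 5 dpi. For Ndufb5, the Foxj1-tdT libraries gave 4904 and 4653 uninjured, 2918 and 2105 at 1 dpi, then 2973 and 2573 at 5 dpi. All injured values were below all uninjured ones. Ndufb5, of the same arm, changed by -0.86 ± 0.18 (adjusted p = 0.00443) in Foxj1-Olig2-tdT cells at 5 dpi and -0.95 ± 0.18 (adjusted p = 0.0036) in Foxj1-tdT cells at 1 dpi, both held throughout. In Foxj1-Olig2-tdT libraries Ndufs7 measured 1784 and 1915 normalised counts uninjured, 1254 and 1486 at 1 dpi, then 951 and 1157 at 5 dpi. For Ndufs7, the Foxj1-tdT libraries gave 1799 and 1819.5 uninjured, 1348 and 1254 at 1 dpi, then 1118 and 916 at 5 dpi. Ndufs7, a core subunit with the iron-sulphur cluster nearest to ubiquinone, changed by -0.82 ± 0.19 (adjusted p = 0.00797) in Foxj1-Olig2-tdT cells at 5 dpi (0.0614 without Foxj1-Olig2-tdT 5 dpi replicate 1) and -0.84 ± 0.19 (adjusted p = 0.0103) in Foxj1-tdT cells at 5 dpi (0.0577 with Foxj1-tdT 5 dpi replicate 2 left out, and 0.0828 and 0.0857 leaving out either uninjured Foxj1-tdT library). Ndufv1, the core subunit that binds NADH, was lower at 5 than at 1 dpi in Foxj1-tdT cells, at 1058 and 892 against 1692 and 2005 normalised counts, -0.92 ± 0.22 (adjusted p = 0.0373), a call lost in 9 alternatives (highest 0.18).

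In complex II the catalytic subunit fell at 5 dpi in both lines, and no member rose over uninjured in either. With 4 members, 0 rises is near the background of 17.2% and 13.8% of all genes called higher at 5 dpi in Foxj1-Olig2-tdT and Foxj1-tdT cells. In Foxj1-Olig2-tdT cells at 5 dpi, 3 of the 4 had a positive fold change (median 0.20, against 0.12 over all genes). Their summed share was nonetheless lower than uninjured, at 0.0888% and 0.0891% against 0.102% and 0.0967%. In Foxj1-Olig2-tdT libraries Sdha measured 6204 and 6508 normalised counts uninjured, 4998 and 5244 at 1 dpi, then 3372 and 3263 at 5 dpi. For Sdha, the Foxj1-tdT libraries gave 5591 and 5389 uninjured, 4852 and 4151 at 1 dpi, then 3205 and 3774 at 5 dpi. Sdha, the flavoprotein that oxidises succinate and whose promoter carries the NRF1 letters repeatedly, was lower at 5 dpi than uninjured in both lines, with no overlap. The changes were -0.94 ± 0.13 (adjusted p = 0.000512) in Foxj1-Olig2-tdT cells, held throughout, and -0.66 ± 0.13 (adjusted p = 0.00642) in Foxj1-tdT cells, lost without uninjured Foxj1-tdT replicate 1 (0.0679) or replicate 2 (0.0516) and counting that pair once (0.0604). The difference between the responses was -0.28 ± 0.19 (adjusted p = 0.407).

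Sdhd, a membrane anchor that helps bind ubiquinone, did not follow Sdha. In Foxj1-Olig2-tdT libraries Sdhd measured 1329 and 1639 normalised counts uninjured, 1475 and 1638 at 1 dpi, then 1779 and 1879.7 at 5 dpi. For Sdhd, the Foxj1-tdT libraries gave 1886 and 1732 uninjured, 1407 and 1305 at 1 dpi, then 1249 and 998 at 5 dpi. At 5 dpi both Foxj1-Olig2-tdT libraries were above, and both Foxj1-tdT libraries below, the uninjured libraries of their line. Sdhd changed by 0.31 ± 0.18 (adjusted p = 0.234) in Foxj1-Olig2-tdT cells and -0.69 ± 0.18 (adjusted p = 0.0223) in Foxj1-tdT cells, the difference between these responses was 1.00 ± 0.26 (adjusted p = 0.0455), and the lines differed by 0.71 ± 0.18 (adjusted p = 0.0394) at 5 dpi. Each of the last 3 was lost in several alternatives: the fall in Foxj1-tdT cells without Foxj1-tdT 5 dpi replicate 2 (0.111) or either uninjured Foxj1-tdT library (0.167 and 0.103), the difference in response in 13 (highest 0.204; 10 of the 12 single libraries ended it), and the difference between lines in 8 (highest 0.205; 5 libraries).

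In Foxj1-Olig2-tdT libraries Sdhb measured 3512 and 1969.6 normalised counts uninjured, 2788 and 3104 at 1 dpi, then 2817 and 3642 at 5 dpi. For Sdhb, the Foxj1-tdT libraries gave 2454 and 2377 uninjured, 3036 and 3629 at 1 dpi, then 2752 and 2929 at 5 dpi. Sdhb is the iron-sulphur subunit. Its 2 uninjured Foxj1-Olig2-tdT libraries differed more than any 2 group means, and none of its adjusted p-values was under 0.199. Sdhc, the other anchor, ranged only from 2572 to 3485 normalised counts over the 12 libraries, and its fold changes lay between -0.27 and 0.39.

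In complex III, the 4 members that rose in Foxj1-Olig2-tdT cells at 5 dpi were Uqcrb, Uqcrq, Uqcr10 and Uqcrh. In Foxj1-Olig2-tdT libraries Uqcrb measured 3039 and 3190.5 normalised counts uninjured, 2945 and 3429.8 at 1 dpi, then 5289 and 5432 at 5 dpi. For Uqcrb, the Foxj1-tdT libraries gave 2169.6 and 2058 uninjured, 3735 and 3605 at 1 dpi, then 3905 and 3783 at 5 dpi. Injured libraries of Foxj1-tdT cells were all above uninjured ones, and those of Foxj1-Olig2-tdT cells at 5 dpi were the highest of all. Uqcrb, a small subunit near the ubiquinone site, rose by 0.78 ± 0.13 (adjusted p = 0.00127) in Foxj1-Olig2-tdT cells at 5 dpi, and in Foxj1-tdT cells by 0.80 ± 0.13 (adjusted p = 0.00165) at 1 dpi and 0.86 ± 0.13 (adjusted p = 0.00141) at 5 dpi, all held throughout. In Foxj1-Olig2-tdT libraries Uqcrq measured 1468 and 1121 normalised counts uninjured, 1772 and 2194 at 1 dpi, then 3032 and 2937 at 5 dpi. For Uqcrq, the Foxj1-tdT libraries gave 1179 and 1319.6 uninjured, 2175 and 2647 at 1 dpi, then 2392 and 2548 at 5 dpi. Uqcrq, another small subunit, rose by 1.22 ± 0.19 (adjusted p = 0.000946) in Foxj1-Olig2-tdT cells at 5 dpi, held throughout, and by 0.98 ± 0.19 (adjusted p = 0.00527) in Foxj1-tdT cells at 5 dpi (0.0606 without uninjured Foxj1-tdT replicate 1). Uqcr10 measured 2809 and 2673 normalised counts in Foxj1-Olig2-tdT cells at 5 dpi, against 1728 and 1498 in Foxj1-tdT cells at 5 dpi, where it differed by 0.77 ± 0.17 (adjusted p = 0.0194); that call did not survive leaving out Foxj1-Olig2-tdT 5 dpi replicate 1 (0.0964) or 2 (0.0906) or Foxj1-tdT 5 dpi replicate 2 (0.114).

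The core proteins and the Rieske protein of complex III had no rise called in any comparison. Uqcrc2, a core protein, was lower in Foxj1-tdT cells at 5 dpi, at 1973 and 2174 normalised counts against 3490.4 and 3368 uninjured, -0.73 ± 0.18 (adjusted p = 0.0182); the call was lost without Foxj1-tdT 5 dpi replicate 1 (0.0848) and either uninjured Foxj1-tdT library (0.12 and 0.0966). Uqcrc1, its partner, was -0.01 ± 0.18 (adjusted p = 0.984) and Uqcrfs1, the Rieske iron-sulphur protein that moves electrons to the cytochrome of the complex, was -0.38 ± 0.18 (adjusted p = 0.136) at 5 dpi in Foxj1-Olig2-tdT cells. In that comparison 0.01 was the value for Uqcrc2 (0.984).

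In complex IV, 7 of 14 members rose in Foxj1-Olig2-tdT cells at 5 dpi and 6 in Foxj1-tdT cells at 5 dpi (2 counting the uninjured Foxj1-tdT pair once). In Foxj1-Olig2-tdT libraries Cox6a1 measured 3094 and 3033 normalised counts uninjured, 3516 and 4134 at 1 dpi, then 6512 and 6656 at 5 dpi. For Cox6a1, the Foxj1-tdT libraries gave 2854 and 3148 uninjured, 3653 and 3628 at 1 dpi, then 5196 and 5216 at 5 dpi. The 5 dpi libraries of both lines were above all others, those of Foxj1-Olig2-tdT cells highest. Cox6a1, the widely expressed isoform of subunit VIa, rose by 1.10 ± 0.13 (adjusted p = 0.000137) in Foxj1-Olig2-tdT and 0.80 ± 0.13 (adjusted p = 0.00198) in Foxj1-tdT cells at 5 dpi, both held throughout. In Foxj1-Olig2-tdT libraries Cox7c measured 3015 and 2780.3 normalised counts uninjured, 3317 and 3926 at 1 dpi, then 6896 and 6448 at 5 dpi. For Cox7c, the Foxj1-tdT libraries gave 2694 and 2858 uninjured, 3836 and 4106 at 1 dpi, then 4356 and 4105 at 5 dpi. Cox7c, a small membrane subunit, rose by 1.20 ± 0.13 (adjusted p = 0.00011) in Foxj1-Olig2-tdT cells at 5 dpi, held throughout, and by 0.61 ± 0.13 (adjusted p = 0.00976) in Foxj1-tdT cells, lost without uninjured Foxj1-tdT replicate 1 (0.0962) or 2 (0.0623). In Foxj1-Olig2-tdT libraries Cox6c measured 5254 and 4700.4 normalised counts uninjured, 4135 and 4657 at 1 dpi, then 7795 and 6418 at 5 dpi. For Cox6c, the Foxj1-tdT libraries gave 3854 and 4332 uninjured, 4749 and 4696 at 1 dpi, then 7869 and 7748 at 5 dpi. Cox6c, also a membrane subunit, had its larger change in Foxj1-tdT cells (0.93 ± 0.14 (adjusted p = 0.00134), held throughout), with 0.51 ± 0.14 (adjusted p = 0.0183) in Foxj1-Olig2-tdT cells, which did not survive leaving out Foxj1-Olig2-tdT 5 dpi replicate 1 (0.131) or Foxj1-Olig2-tdT uninjured replicate 2 (0.0816).

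Cox5a and Cox5b, on the matrix side, are set side by side. In Foxj1-Olig2-tdT libraries Cox5a measured 3282 and 2869 normalised counts uninjured, 3417 and 3004 at 1 dpi, then 4266 and 4799 at 5 dpi. For Cox5a, the Foxj1-tdT libraries gave 2406 and 2309 uninjured, 3263 and 3334 at 1 dpi, then 2750.2 and 2652 at 5 dpi. Cox5a was highest in Foxj1-Olig2-tdT cells at 5 dpi, 0.74 ± 0.14 (adjusted p = 0.00912) over Foxj1-tdT cells at that time, a call lost without Foxj1-Olig2-tdT 5 dpi replicate 2 (0.0828) or Foxj1-tdT 5 dpi replicate 2 (0.0526). Cox5b rose by 0.99 ± 0.15 (adjusted p = 0.00089) in Foxj1-Olig2-tdT cells at 5 dpi, held throughout, to 3220.2 and 4163 normalised counts, against 1876 and 1818 uninjured.

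Several subunits of complex IV exist as tissue-dependent isoforms. Cox4i1, the common form of the subunit on which the complex is built up, ranged from 6518 to 9684 normalised counts and was called in no comparison. Cox4i2, its oxygen-responsive form, was listed at 0 in both uninjured groups and at no more than 53.5 elsewhere, with 29.6 and 0 in Foxj1-Olig2-tdT cells at 1 dpi. Cox7a2, the common form, rose by 0.91 ± 0.15 (adjusted p = 0.00134) in Foxj1-Olig2-tdT cells at 5 dpi, held throughout. In Foxj1-Olig2-tdT libraries Cox7a1 measured 108 and 126 normalised counts uninjured, 156 and 169 at 1 dpi, then 189 and 193 at 5 dpi. For Cox7a1, the Foxj1-tdT libraries gave 38.1 and 46.7 uninjured, 31.4 and 23.5 at 1 dpi, then 141 and 79.7 at 5 dpi. Cox7a1, the muscle form, was higher in every Foxj1-Olig2-tdT group than in the Foxj1-tdT group of the same time, called at 1 dpi alone (2.54 ± 0.52 (adjusted p = 0.0416)), with the losses given above; pericyte and smooth muscle genes held 0.00816% and 0.0126% of summed values in those Foxj1-Olig2-tdT libraries and 0.00481% and 0.00555% in the Foxj1-tdT libraries, and their part was not tested. Cox6b1, the common form, rose by 0.70 ± 0.13 (adjusted p = 0.00312) in Foxj1-Olig2-tdT cells at 5 dpi, while Cox6b2, known from testis, lay between 133 and 428 normalised counts and was called nowhere. Cox8a was likewise called nowhere, with -0.40 ± 0.14 (adjusted p = 0.0532) in Foxj1-tdT cells at 1 dpi as its smallest adjusted p.

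Ndufa4l2, a relative of Ndufa4 known to be induced by low oxygen, was rare. In Foxj1-Olig2-tdT libraries Ndufa4l2 measured 31.5 and 29.2 normalised counts uninjured, 12.7 and 14.7 at 1 dpi, then 0 and 6.9 at 5 dpi. For Ndufa4l2, the Foxj1-tdT libraries gave 17.3 and 18.6 uninjured, 0 and 1.0 at 1 dpi, then 20.4 and 12.8 at 5 dpi. Ndufa4l2 fell with injury in Foxj1-tdT cells at 1 dpi (-3.74 ± 1.06 (adjusted p = 0.0255)) and in Foxj1-Olig2-tdT cells at 5 dpi (-3.48 ± 1.06 (adjusted p = 0.0306)), with values at or near 0 in those groups, so that these log2 values depend on the pseudocount. Both calls were lost in several alternatives (5 and 6, highest 0.144 and 0.206, among them without either library of uninjured Foxj1-tdT cells).

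In complex V, Atp5g1 had the largest called rise of any member at 1 dpi. In Foxj1-Olig2-tdT libraries Atp5g1 measured 1565 and 1579 normalised counts uninjured, 2627 and 2823 at 1 dpi, then 3461 and 3937 at 5 dpi. For Atp5g1, the Foxj1-tdT libraries gave 1293 and 1319 uninjured, 3596 and 3512 at 1 dpi, then 2292 and 2237 at 5 dpi. In Foxj1-tdT cells it was highest at 1 dpi and in Foxj1-Olig2-tdT cells at 5 dpi, with no overlap between the times of a line. Atp5g1 encodes the proton-carrying subunit c, and the same mature protein is made from Atp5g2 and Atp5g3. It rose by 1.44 ± 0.14 (adjusted p = 9.64e-05) at 1 dpi and 0.79 ± 0.14 (adjusted p = 0.00296) at 5 dpi in Foxj1-tdT cells, and by 0.79 ± 0.14 (adjusted p = 0.00675) and 1.23 ± 0.14 (adjusted p = 0.000108) in Foxj1-Olig2-tdT cells, all held throughout. The 5 dpi level in Foxj1-tdT cells was below that at 1 dpi (-0.65 ± 0.14 (adjusted p = 0.0239)), lost without any 1 of the Foxj1-tdT libraries (0.0517 to 0.0985). Atp5g2 rose by 0.81 ± 0.19 (adjusted p = 0.00833) in Foxj1-Olig2-tdT cells at 5 dpi (0.0573 without Foxj1-Olig2-tdT 5 dpi replicate 2), and Atp5g3 by 0.58 ± 0.17 (adjusted p = 0.0255), which was lost in 7 alternatives (highest 0.109).

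In Foxj1-Olig2-tdT libraries Atp5j2 measured 1392 and 1263 normalised counts uninjured, 1944 and 2169.7 at 1 dpi, then 3455 and 3445 at 5 dpi. For Atp5j2, the Foxj1-tdT libraries gave 1215 and 1332 uninjured, 2335 and 2029 at 1 dpi, then 2731 and 2553 at 5 dpi. Atp5j2, subunit f of the membrane part, was above uninjured in every injured library of both lines and rose by 1.38 ± 0.15 (adjusted p = 0.000107) in Foxj1-Olig2-tdT and 1.05 ± 0.15 (adjusted p = 0.00123) in Foxj1-tdT cells at 5 dpi, both held throughout. The catalytic head did not move as 1 unit. In Foxj1-Olig2-tdT libraries Atp5b measured 11687 and 10619 normalised counts uninjured, 13225 and 13368 at 1 dpi, then 15939 and 17206 at 5 dpi. For Atp5b, the Foxj1-tdT libraries gave 9431 and 9153 uninjured, 15062 and 16282 at 1 dpi, then 10554 and 10684 at 5 dpi. Atp5b rose at 1 dpi in Foxj1-tdT cells (0.75 ± 0.10 (adjusted p = 0.000578)) with a smaller value over uninjured at 5 dpi (0.19 ± 0.10 (adjusted p = 0.2)), whereas in Foxj1-Olig2-tdT cells it was 0.26 ± 0.10 (adjusted p = 0.156) at 1 dpi and 0.57 ± 0.10 (adjusted p = 0.00187) at 5 dpi. In Foxj1-Olig2-tdT libraries Atp5a1 measured 10162 and 11086 normalised counts uninjured, 8500.4 and 8168 at 1 dpi, then 7862 and 7927 at 5 dpi. For Atp5a1, the Foxj1-tdT libraries gave 10804 and 11967 uninjured, 8757 and 7952 at 1 dpi, then 7584 and 7021 at 5 dpi. Atp5a1, the alpha subunit that alternates with beta in the head, fell by 0.64 in Foxj1-tdT cells at 5 dpi (SE 0.11, adjusted p = 0.0031, held throughout) and by 0.43 in Foxj1-Olig2-tdT cells (0.0155; 0.0657, 0.0653 and 0.074 without Foxj1-Olig2-tdT 5 dpi replicate 1, 5 dpi replicate 2 and uninjured replicate 2). The 2 subunits of the head changed in opposite directions in Foxj1-Olig2-tdT cells at 5 dpi.

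The 2 factors caught by the Atp5 prefix both fell. Atp5sl, now named Dmac2 and known from human cells as a factor in building the membrane arm of complex I, measured 209 and 179 normalised counts in Foxj1-Olig2-tdT cells at 5 dpi, against 1063 and 607 uninjured, -2.05 ± 0.35 (adjusted p = 0.00157), held throughout. In Foxj1-tdT cells it was -0.47 ± 0.35 (adjusted p = 0.371). Atp5s measured 245 and 293 in Foxj1-tdT cells at 1 dpi, against 801 and 819 uninjured, -1.59 ± 0.41 (adjusted p = 0.0176), a call lost without any 1 library of these groups (0.0517 to 0.102).

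The mitochondrially encoded subunits were called lower and never higher. Of 13, 11 fell in Foxj1-Olig2-tdT cells at 5 dpi over uninjured (median -0.88), 8 and 9 in Foxj1-tdT cells at 1 and 5 dpi (medians -0.48 and -0.46), 10 in Foxj1-Olig2-tdT cells from 1 to 5 dpi, 1 in Foxj1-tdT cells from 1 to 5 dpi, and 8 were lower in Foxj1-Olig2-tdT than in Foxj1-tdT cells at 5 dpi (median -0.51). In the same order, 14%, 12%, 9.21%, 7.93%, 3.11% and 5.88% of all genes were called lower. Counting the uninjured Foxj1-tdT pair once, 2 fell at each time in Foxj1-tdT cells. mt-Nd4, a proton-pumping subunit of complex I, had 55287.5 and 47802.9 normalised counts in Foxj1-Olig2-tdT cells at 5 dpi, against 135332.8 and 115901.2 uninjured, -1.28 (adjusted p = 0.000124 by limma, held throughout). mt-Nd2, mt-Nd4l, mt-Nd5 and mt-Atp8 also held throughout there, at -1.27, -1.29, -1.20 and -0.94. Forcing the libraries to 1 distribution turned the sign of 9 results for mt-Atp6, mt-Cytb, mt-Nd4 and mt-Co1, whose values are given under the processing.

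Genes that serve the chain were read from separate lists, beside the share of all genes called higher and lower: 17.2% and 14% in Foxj1-Olig2-tdT cells at 5 dpi, 15.4% and 12% in Foxj1-tdT cells at 1 dpi, and 13.8% and 9.21% in Foxj1-tdT cells at 5 dpi. Of 46 assembly factors, 4 rose and 0 fell in Foxj1-Olig2-tdT cells at 5 dpi, 9 and 4 in Foxj1-tdT cells at 1 dpi, and 6 and 4 in Foxj1-tdT cells at 5 dpi; counting the uninjured Foxj1-tdT pair once the last 2 were 2 and 2, and 1 and 0. As shares these were 8.7% and 0%, then 19.6% and 8.7%, then 13% and 8.7%, under or near the shares over all genes. Uqcc2, needed to assemble complex III, rose in all of these (1.10, 1.74 and 1.32), each held throughout, and Cox17, the copper chaperone of complex IV, rose by 1.04 in Foxj1-Olig2-tdT cells at 5 dpi and 1.29 in Foxj1-tdT cells at 1 dpi. Tmem126b, of complex I assembly, fell by 1.99 in Foxj1-tdT cells at 1 dpi (adjusted p = 0.0006). Among 13 electron, nucleotide and phosphate carriers, 5 rose and 1 fell in Foxj1-Olig2-tdT cells at 5 dpi, and 3 and 1 in Foxj1-tdT cells at each time (0 and 1 at 5 dpi counting that pair once). Cycs, cytochrome c, rose by 1.03 (adjusted p = 0.00534) in Foxj1-Olig2-tdT cells at 5 dpi, to 3259 and 3455 normalised counts against 1576 and 1723, and by 1.67 in Foxj1-tdT cells at 1 dpi. Etfa, which feeds electrons from fatty acid oxidation into the chain, went the other way: it measured 3403 and 2985 in Foxj1-Olig2-tdT cells at 5 dpi, against 9634 and 9270.3 uninjured, and fell by 1.57 (adjusted p = 2.78e-05, held throughout), and by 1.16 and 0.80 in Foxj1-tdT cells at 1 and 5 dpi.

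Of 14 citric acid cycle enzymes, 3 rose and 3 fell in Foxj1-Olig2-tdT cells at 5 dpi (21.4% each, near the shares over all genes; 1 rise and 3 falls counting the uninjured Foxj1-tdT pair once, with 14.6% of all genes higher), and 1 rose and 5 fell in Foxj1-tdT cells at 5 dpi (0 and 1 counting the uninjured Foxj1-tdT pair once). Idh3a, the catalytic subunit of NAD-dependent isocitrate dehydrogenase, fell by 1.20 and 1.26 in these (adjusted p = 0.00141 and 0.00198, both held throughout), and Dlst, of the oxoglutarate dehydrogenase complex, rose by 1.16 in Foxj1-Olig2-tdT cells. Among 18 regulators of mitochondrial biogenesis, 0 rose and 2 fell in Foxj1-Olig2-tdT cells at 5 dpi, 0 and 1 in Foxj1-tdT cells at 1 dpi, and 2 and 3 in Foxj1-tdT cells at 5 dpi (0 and 2 counting the pair once). Ppargc1a, the coactivator known for driving respiratory chain genes, measured 116 and 231 normalised counts in Foxj1-Olig2-tdT cells at 5 dpi, against 968 and 1214 uninjured, and 263 and 222 in Foxj1-tdT cells at 5 dpi, against 1104 and 1019 uninjured. It fell by 2.72 and 2.13 (adjusted p = 0.000451 and 0.00339, limma, both held throughout). In the same comparisons 64 of 80 members had fold changes above 0 in Foxj1-Olig2-tdT cells (80%, against 53.6% of all genes). In Foxj1-tdT cells 59 of 80 did (73.8%, against 51.3%). The part of Ppargc1a in the members' changes was not tested. Of 9 superoxide and peroxide defence genes, 0 rose and 1 fell in Foxj1-Olig2-tdT cells at 5 dpi and 2 rose and 0 fell in Foxj1-tdT cells at 5 dpi (1 and 0 counting that pair once). The fall was Sod2, the mitochondrial superoxide dismutase (-1.11, adjusted p = 0.000575, held throughout). Txnrd2, a mitochondrial thioredoxin reductase, was listed at 0 in both uninjured Foxj1-tdT libraries and at 81.7 and 172 in Foxj1-tdT cells at 5 dpi.

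Single cells gave levels by library code. Of 3500 cells in the deposited matrix of unique molecular counts (UMIs), the 3285 that the deposited cell table lists were used; 7 cell barcodes occurred under more than 1 code. The 6 codes match no sample label, so they are given one by one and compared with no condition. Which codes hold uninjured cells and which hold cells from weeks after injury is not known, so their shares are not set beside the bulk times. The members found (80) took 2.75% of UMIs in code 017, 2.84% in 018, 2.87% in 019, 2.96% in 020, 2.57% in 072 and 2.54% in 073, a median of 2.79% and the highest 1.16 times the lowest. The 95% Clopper-Pearson intervals of the highest and the lowest, which cover counting error only, ran from 2.94% to 2.98% and from 2.53% to 2.56%. Codes 072 and 073 were also the deepest, with medians of 7038.5 and 7397 UMIs per cell, against 2714 to 5359 in the others. Code 020 was highest for 32 members and code 073 lowest for 34. Per complex, the shares ran from 0.948% to 1.08% for I, 0.0620% to 0.0723% for II, 0.260% to 0.312% for III, 0.633% to 0.765% for IV and 0.633% to 0.735% for V. The highest code was 1.14 to 1.21 times the lowest in each.

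**Figure D5:**
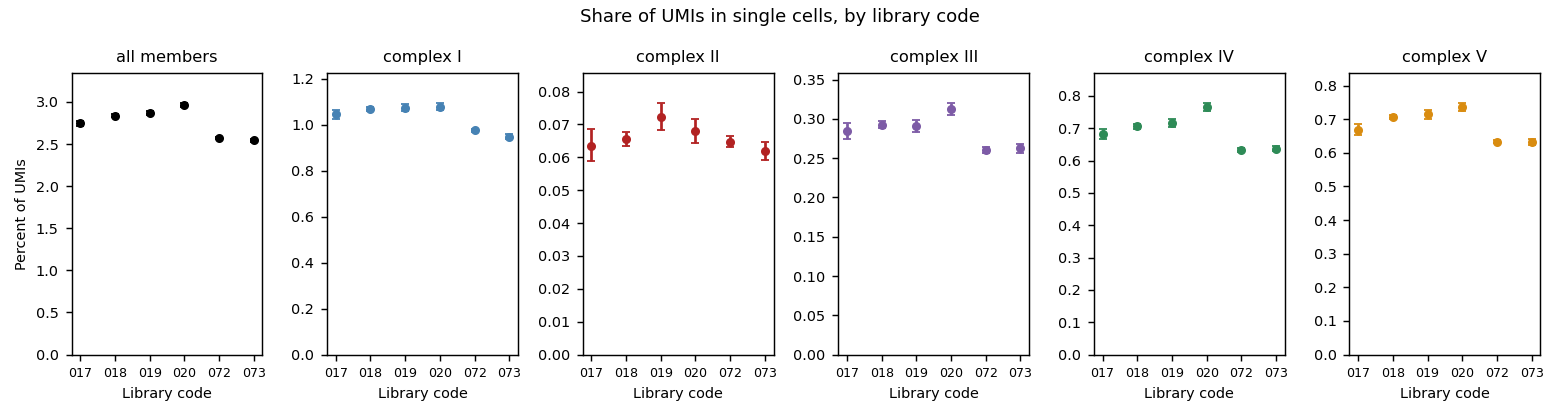
Share of UMIs (percent, y axes from 0) held by all members and by each complex in the 6 single-cell library codes; points are code totals and bars are 95% Clopper-Pearson intervals, which cover counting error only. Codes 072 and 073 are below the other codes for all members, complex I, III, IV and V, and code 019 is highest for complex II.

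Code 020 had 176 of its cells left out of the cell table, and with them its share was 2.45%, between 2.41% in code 073 and 2.86% in 019 when all cells of every code are counted. Markers of other cells were also uneven: genes of myelinating oligodendrocytes took 2.47% of UMIs in code 073 and 0.765% in 020, against 0.0232% to 0.0813% in the other codes, and motile cilia genes took 0.604% in 073 and 0.772% in 020, against 0.936% to 1.16%. The part of cell makeup in the levels of these codes was not tested. Across cells within a code, the share of UMIs from members and that from cilia genes had Spearman correlations of 0.0187 to 0.321, as a description of cells that share a library and its depth.

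The isoforms were also read in single cells. Cox4i1 took 1004.4 to 1221.3 CPM (UMIs scaled to a common code total), whereas Cox4i2 had 9 UMIs in all cells together, Cox6a2 2, Cox7b2 16, Cox8b 3 and Cox8c 0 (a count of 0 allows up to 3 UMIs). Ndufa4 ran from 392 CPM in code 072 to 599 CPM in 020, and Ndufa4l2 from 1.95 CPM in 020 to 6.32 CPM in 018, its highest code 3.24 times its lowest. Next in spread were Atp5s (2.48 times), Cox6b2 (2.17 times, lowest in 073) and Cox7a1 (2.06 times, highest in 020). Over all codes Ndufa4l2 had 99 UMIs, Atp5s 380, Cox7a1 593 and Cox6b2 1457. Ratios from so few UMIs include counting error and are not read as differences between codes. Of complex II, Sdha was highest in 019 (268 CPM) and lowest in 073 (190.4 CPM), and Sdhd was highest in 073 (83.3 CPM) and lowest in 017 (55.0 CPM).

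Open chromatin at the members' starts was read from 1084 single cells of 1 sample labelled non-neuronal uninjured spinal cord, with the authors' classes and peaks (mm10). Of the members, 67 had an entry among the RefSeq promoters, and all 67 had a peak within 500 bases of the start, against 64.7% of 17491 protein-coding genes. The members were drawn from the genes of the bulk table and the coding genes were not, so these shares are of unlike sets. Cut sites in the peaks of members within 2 kb made up 0.200%, 0.207% and 0.222% of those of the classes EP1, EP2 and EP3, against 0.319% and 0.313% in the classes ACNT1 and ACNT2, 0.286% in OPC, 0.371% in VEC and 0.332% in PER. The EP classes had the lowest shares, but they also had the lowest share of cut sites near any coding gene start, 37.3% to 39.5%, against 44.5% to 54.7% in the other classes. As a share of those, members made up 0.537% to 0.560% in EP1 to EP3, against 0.595% to 0.702% elsewhere. The 95% Clopper-Pearson intervals, for counting error only, reached up to 0.570% in EP3 and down to 0.581% in OPC, the nearest classes. Median cut sites per cell ran from 7249.5 in VEC to 46787.5 in EP2. With 1 sample, none of these differences has a replicate check.

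The promoter letters were also counted over the 67 members with a promoter entry, which have 73 windows. A gene was counted if any of its windows held a match. The coding genes were counted in the same way, over 21262 windows. The NRF1 motif GCGCANGCG was present for 20 (29.9%), against 9.63% of 17491 protein-coding genes in windows of the same length, counting both strands. The ETS core CCGGAAG was present for 16 (23.9% against 12.9%) and the YY1 motif AAGATGGCG for 8 (11.9% against 2.14%), whereas GGGCGGGG, bound by SP1, was present for 13 (19.4% against 26.2%). Genes with NRF1 letters were Sdha and Sdhd of complex II, Ndufa5, Ndufa6, Ndufa8, Ndufa11, Ndufb4, Ndufb10, Ndufs5 and Ndufs6 of complex I, Uqcr11 and Uqcrc1 of complex III, Cox6a1 of complex IV, and Atp5c1, Atp5g2, Atp5g3, Atp5h, Atp5k, Atp5l and Atp5o of complex V; they span rises (Ndufa5, Cox6a1) and a fall (Sdha) called at 5 dpi over uninjured in both lines. The ETS letters occurred for Ndufb6, Ndufb7, Ndufs3, Ndufs8, Sdhb, Sdhd, Uqcr11, Uqcrh, Cox6a1, Cox6b1, Cox8a, Atp5e, Atp5h, Atp5j, Atp5k and Atp5l. The YY1 letters occurred for Atp5j, Atp5j2, Atp5sl, Ndufa9, Ndufc1, Ndufs4, Ndufs6 and Ndufs7. The coding genes were again not limited to those of the bulk table. These are matches of letters, which were set with promoter counts known, and were not tested for binding.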

How the data were processed

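Bulk values are the normalised counts the authors deposited, a signal scale with no whole reads to recover and no stated gene length correction, so genes are not compared with each other in level. Single-cell counts are the deposited unique molecular counts, and the counts of cut sites per peak are the single-cell chromatin matrix as deposited. Bowtie2, SAMtools, deepTools, Cell Ranger and Cell Ranger ATAC are named, per the submitters' processing notes, with the mm10 build. How the bulk values were normalised is not given in the sources used here.

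Genes with at least 10 in at least 2 libraries (15811 of 16301) entered 1 fit with limma 3.58.1 in R 4.3.3, on log2(value + 1), with a mean for each of 6 groups and trended empirical Bayes variances. The p-values were adjusted by Benjamini-Hochberg over all genes of a comparison and called under 0.05. Tables and exact intervals used Python with scipy 1.17.1, pandas 2.3.3 and numpy 2.4.6. The fit was tested on simulated data. The members and gene lists were chosen with earlier results of these data known. In each comparison up to 5 called members with the largest rise and up to 5 with the largest fall were named, if their libraries did not overlap and a group mean reached 50; isoform pairs, complex II, and up to 3 genes of each other list by smallest adjusted p were named as well. Other members are named where a count is spelled out, chosen after their values were seen.

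The alternatives were a pseudocount of 8, no filter, median-of-ratios factors, quantile normalisation, a replicate block, the uninjured Foxj1-tdT pair as 1 library, and leaving out each of 12 libraries. Cells absent from the deposited cell table were left out, no doublet caller was run here, and codes that match no sample were compared with no condition. Promoters are RefSeq windows of GRCm38.p6, matched by symbol or synonym; the motif letters were set with promoter counts known.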

Additional observations from a re-analysis of the deposited data

Results flagged for a closer look

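Among the 80 members and the 13 mitochondrially encoded subunits, the 5 dpi response differed between Foxj1-Olig2-tdT and Foxj1-tdT cells in 4 genes by the interaction term of the limma fit. Of the 80 members, 1.25% were called in each direction, under the 2.64% of all genes called higher and 4.64% called lower. Of the 13 mitochondrially encoded subunits, 15.4% were called lower, over the 4.64% of all genes, and 0% higher. The difference, as the Foxj1-Olig2-tdT response minus the Foxj1-tdT response on the log2 scale, was -0.96 for Ndufb10 and 1.00 for Sdhd among the nuclear-encoded members. It was -0.78 for mt-Nd4 among the mitochondrially encoded subunits, and mt-Nd6 fell by 1.00 more in Foxj1-Olig2-tdT than in Foxj1-tdT cells. None of these 4 calls stood counting the uninjured Foxj1-tdT pair as a single library. The same test called Dlst higher and Etfa and Txnrd2 lower on the lists of genes that serve the chain, and 17 of 20 motile cilia genes lower. Counting that pair once, 7 of the 20 cilia genes were lower (1.23% of all genes), and Dlst, Etfa and Txnrd2 were not called.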

How the results depend on the processing

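Of 132 calls of members, a pseudocount of 8 ended 0, leaving the filter out 4, factors by median of ratios 1, quantile normalisation 18 and the uninjured Foxj1-tdT pair as 1 library 55; leaving out 1 library ended 12 to 58. The cause of these losses was not tested, and fewer libraries were fitted in the last 2. With the pair as 1 library, members higher in Foxj1-Olig2-tdT than in Foxj1-tdT cells numbered 0 uninjured, 0 at 1 dpi and 8 at 5 dpi. Members higher and lower numbered 10 and 1 in Foxj1-tdT cells at 1 dpi, 9 and 1 at 5 dpi, and 1 was lower from 1 to 5 dpi. In Foxj1-Olig2-tdT cells 1 was higher at 1 dpi and 11 from 1 to 5 dpi, and the difference in the 5 dpi response gave 0 in each direction. Under quantile normalisation, 8 members were higher and 1 lower between the lines at 5 dpi, and the 5 dpi responses differed in 0 higher and 2 lower. That setting also turned the sign of mt-Atp6 between the lines at 5 dpi (0.06), in Foxj1-tdT cells at 1 dpi (0.06) and 5 dpi (0.06), and in Foxj1-Olig2-tdT cells at 5 dpi over uninjured (0.31) and over 1 dpi (0.11). It did so for mt-Cytb (0.16) and mt-Nd4 (0.16) in Foxj1-tdT cells at 1 dpi, mt-Nd4 from 1 to 5 dpi in Foxj1-tdT cells (-0.58) and mt-Co1 in Foxj1-Olig2-tdT cells at 5 dpi (0.22).

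With 1 library left out, members higher between the lines numbered 0 to 4 uninjured, 0 to 1 at 1 dpi and 2 to 16 at 5 dpi (0 to 1 lower). In Foxj1-tdT cells, 8 to 20 rose and 1 to 4 fell at 1 dpi, 9 to 20 rose and 1 to 7 fell at 5 dpi, and 1 to 4 rose and 0 to 3 fell from 1 to 5 dpi. In Foxj1-Olig2-tdT cells, 1 to 2 rose and 0 to 1 fell at 1 dpi, 17 to 31 rose and 4 to 7 fell at 5 dpi, and 6 to 19 rose and 0 to 2 fell from 1 to 5 dpi. The difference in response gave 0 to 1 lower at 1 dpi, and 0 to 2 higher and 0 to 2 lower at 5 dpi. Leaving out 1 library leaves 1 in its group, which is assumed to vary like the others.

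Replicate numbers did not pair the libraries: 15 correlations of same-numbered deviations ran from -0.0296 to 0.0222. The replicate block ended 15 member calls and left 2 members higher uninjured, 0 at 1 dpi, and 0 higher in the difference of 5 dpi responses. The share of cells with a cut site has another unit than the share of cut sites and was not set against it. Depth per library is unknown in bulk, and members with under 100 UMIs over all codes (2) limit what single cells show.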
